A study of Homo sapiens with 8 samples.

Results

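A set of 35 genes was expressed in BEAS-2B cells before and during nickel exposure and at a lower level in both populations grown after the removal of nickel. Most of these genes were reduced and not silent. BEAS-2B cells come from human bronchial epithelium and were immortalised to serve as a model of the airway lining. RNA-Seq was carried out on untreated cells (UT), on cells kept for 6 weeks in 100 µM NiCl2, a soluble nickel salt (Ni-E), on a nickel-washed-out population that had the same exposure and was then expanded from a single cell in nickel-free medium for more than 6 months (Ni-W), and on a group named HCl3. HCl3 carries the same treatment text as Ni-W, but the labels do not say how long it grew without nickel or how it relates to Ni-W. Each group had 2 libraries, biological replicates per the methods of the study, with totals between 26383920 and 45692298 reads. Because Ni-W grew from 1 cell, a change after washout and a trait of that clone cannot be told apart. The labels number the Ni-E and HCl3 libraries as later experiments and give UT and Ni-W no number. Experiment and group therefore cannot be told apart either. This bears most on Ni-E against UT and on HCl3 against Ni-W, each a numbered group against one without a number. All groups are the same cell line, and the labels name no engineered change in any of them.

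The genes were selected on their measured level in RPKM (deposited reads relative to transcript length and to all mapped reads). A gene needed an RPKM of at least 1 in each UT and Ni-E library (the earlier libraries), and its largest value over the 4 Ni-W and HCl3 libraries (the washed-out libraries) could not exceed 0.6 times its smallest earlier value. Of 25411 listed genes, 10700 reached the minimum level and 35 of these (0.327%) met the rule. With Ni-W alone as the washed-out group 155 genes would have met it, and with HCl3 alone 75. The lower level after washout is therefore what chose the genes, and it is described here without a test. Nearest to the limit were SNORD6 (ratio 0.60, 2.43 against 4.05 RPKM), CTH (0.598) and SNHG1 (0.595) on the inside, and TUBE1 (0.602), NOP16 (0.602) and SNORD30 (0.605) on the outside. The study showed SELENBP1 as a gene lowered only after exposure, CDKN2B as lowered from exposure on, and TAGLN as lowered only during exposure. None of them belonged to the set. Nor did CDH12, DPYSL3 and SEMA3D, whereas TLL1 did. CDH12 fell from a smallest earlier value of 0.39 RPKM, under the minimum, to at most 0.01 after washout. Because the rule takes the smallest earlier value, it largely bars genes lowered during exposure, such as CDKN2B and TAGLN. Their largest washed-out values were 10.23 and 245.56 RPKM, against smallest earlier values of 8.72 and 61.12. SELENBP1 was at 4.09 against 4.05, with HCl3 included, a group that the study's classes did not use. The absence of these genes is therefore no test of those classes.

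Several of the 35 genes belong to well-known programmes. The transcription factor ATF4 is translated when amino acids run short or proteins misfold, and it switches on genes for amino acid synthesis, transport and tRNA charging, often through a C/EBP-ATF response element in their promoters. Ribosome assembly in the nucleolus, which needs RNA polymerase I, snoRNAs and a large supply of nucleotides, follows the growth rate of a cell. Nickel ions are known to stabilise HIF-1α, the oxygen-regulated transcription factor encoded by HIF1A, by interfering with the enzymes that mark it for destruction.

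BEAS-2B markers were checked first. The keratins KRT8 (192 to 310 RPKM over the libraries) and KRT18 (144 to 245) were high in every library, while the epithelial genes KRT5, KRT14, TP63, SCGB1A1 and FOXJ1 were under 0.1 RPKM, and CDH1, the epithelial cadherin, was at most 0.11. The mesenchymal genes VIM and COL1A1 were also high. Of the epithelial markers 4 (KRT8, KRT17, KRT18 and EPCAM) reached 1 RPKM in any library, as did 4 of the 8 mesenchymal markers, and the epithelial gene MUC5AC was not analysed here. The summed epithelial markers were 341 to 372 RPKM in UT, 396 to 446 in Ni-E, 487 to 515 in Ni-W and 545 to 581 in HCl3, and the summed mesenchymal markers 1831 to 1877, 1181, 1059 to 1261 and 1976 to 2011. Immune (PTPRC and CD3E) and endothelial (PECAM1, CDH5, VWF, KDR) defining markers were at most 0.1 RPKM in all libraries, while CD68 and CD14, which are not limited to immune cells, were at 14.33 to 21.8 and 1.06 to 4.15. Both the epithelial and the mesenchymal sums differed between groups, and their part in the level of the 35 genes was not tested. In bulk RNA, fewer expressing cells and less RNA per cell cannot be told apart.

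Promoter sequences are shown first for the members whose promoters contain the letters of the C/EBP-ATF response element. RefSeq promoters (build GRCh38.p14, 250 bases before to 50 after the start of the gene) matched 26 of the 35 genes by symbol. The C/EBP-ATF response element, searched as TGATGNAAN on both strands, occurred in 3 of these 26 (ASNS, CHAC1 and DCDC2), against 3.61% of all 35116 promoters. The E-box CACGTG, a palindrome bound by MYC and related factors, occurred in 3 of the 26 (MAPKAPK3, RCL1 and MYBBP1A), against 7.26% of all promoters. With 3 genes each and no test, neither count is read as a result about the members. Both shares count promoters of all genes, expressed or not, whereas members are counted by gene. Shares over expressed genes are not given here, and promoters of members held more CG dinucleotides (median 26) than all promoters (14). No promoter of a member held both motifs, and a match describes the sequence and not binding. Given below are ASNS (chr7:97872418-97872526, minus strand), CHAC1 (chr15:40953221-40953319, plus strand) and DCDC2 (chr6:24358119-24358227, minus strand), each read in the direction of the gene with the element in capitals. The element begins 68 bases before the start of ASNS and 210 bases before that of CHAC1, where it lies on the opposite strand. In DCDC2 it begins 118 bases before the start.
ASNS: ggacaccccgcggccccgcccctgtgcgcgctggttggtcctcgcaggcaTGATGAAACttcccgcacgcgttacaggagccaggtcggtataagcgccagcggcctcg
CHAC1: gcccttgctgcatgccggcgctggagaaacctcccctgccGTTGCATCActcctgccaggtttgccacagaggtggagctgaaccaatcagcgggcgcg
DCDC2: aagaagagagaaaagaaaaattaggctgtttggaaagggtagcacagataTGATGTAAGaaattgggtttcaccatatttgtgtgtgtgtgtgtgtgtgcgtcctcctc

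The second set of sequences shows how far the promoters differ in CG dinucleotides, the sites of DNA methylation in mammals. The 5 members with the lowest level after washout, TLL1, BCHE, HIF1A-AS1, DCDC2 and LOC101927780 (now LINC01303), are described in the next paragraph. Given here are the 200 bases before the start of BCHE (chr3:165837424-165837623, minus strand), TLL1 (chr4:165873037-165873236, plus strand) and HIF1A-AS1 (chr14:61695824-61696023, minus strand), with every CG in capitals. Within these 200 bases BCHE holds 2 CG, TLL1 5 and HIF1A-AS1 18.
BCHE: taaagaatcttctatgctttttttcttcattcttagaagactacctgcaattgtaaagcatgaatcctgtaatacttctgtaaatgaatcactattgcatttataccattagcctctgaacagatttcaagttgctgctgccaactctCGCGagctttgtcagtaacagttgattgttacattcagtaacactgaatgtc
TLL1: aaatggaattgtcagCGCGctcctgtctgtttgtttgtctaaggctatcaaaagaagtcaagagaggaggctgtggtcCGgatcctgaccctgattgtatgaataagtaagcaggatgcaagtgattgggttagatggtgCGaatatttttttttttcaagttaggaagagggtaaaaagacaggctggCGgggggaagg
HIF1A-AS1: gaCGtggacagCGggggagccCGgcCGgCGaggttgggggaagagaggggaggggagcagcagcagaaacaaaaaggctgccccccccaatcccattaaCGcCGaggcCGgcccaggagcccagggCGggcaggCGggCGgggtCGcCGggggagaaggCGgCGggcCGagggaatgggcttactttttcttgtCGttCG

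Of the 35 genes, 5 were close to silent after washout, with mean washed-out levels between 0.41 and 7.22% of their mean earlier level. BCHE, which encodes butyrylcholinesterase, a secreted enzyme that splits choline esters, was at 1.76 and 1.72 RPKM in UT, 8.56 and 9.94 during exposure, 0.00 and 0.01 in Ni-W, with 0.02 and 0.06 in HCl3. It thus had its highest values during exposure and was represented by 0, 1, 2 and 6 reads in the washed-out libraries. TLL1, a tolloid-like metalloprotease that processes procollagens and chordin, was at 1.02 and 1.03 RPKM in UT, 1.22 and 1.34 during exposure, 0.01 and 0.03 in Ni-W, with 0.00 and 0.01 in HCl3. Its washed-out libraries held 4, 3, 0 and 1 reads against 218 to 337 reads in the earlier libraries, and a count of 0 allows up to 3 reads. DCDC2, a doublecortin-domain protein that binds microtubules and is found in cilia, was at 1.65 and 1.83 RPKM in UT, 1.95 and 2.05 during exposure, 0.16 and 0.11 in Ni-W, with 0.17 and 0.10 in HCl3. The listed opposite-strand gene KAAG1 overlaps DCDC2, and since no source states whether counting used strand, reads of the 2 genes cannot be told apart.

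HIF1A-AS1 and LOC101927780 are long noncoding RNAs on the minus strand of chromosome 14, beside the gene for HIF-1α. They were the only members that lay next to each other, with no other gene between them at an RPKM of at least 1 in each UT and Ni-E library. HIF1A-AS1 (hg19 chr14:62147759-62162541) was at 11.72 and 13.56 RPKM in UT, 15.54 and 14.17 during exposure, 0.22 and 0.39 in Ni-W, with 0.44 and 0.33 in HCl3. LOC101927780 (hg19 chr14:62022990-62037371) was at 2.28 and 2.33 RPKM in UT, 3.09 and 3.47 during exposure, 0.17 and 0.30 in Ni-W, with 0.10 and 0.18 in HCl3. For LOC101927780 the RPKM and the reads did not move in proportion. Its mean washed-out level was 6.71% of the earlier one in RPKM and 13.6% in reads scaled to the library total, and the cause was not tested. It overlaps FLJ22447 on the opposite strand, which lies between both members and missed that level in 1 UT library. FLJ22447 was at 1.23 and 0.65 RPKM in UT, 1.49 and 1.05 during exposure, 0.42 and 0.5 in Ni-W, with 1.5 and 1.46 in HCl3. DESeq2 called it higher in HCl3 than in Ni-W (log2 1.69 ± 0.43 SE, adjusted p = 0.00127) and did not call it in Ni-W against UT (-1.09 ± 0.56, adjusted p = 0.135).

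HIF1A itself is no member and was chosen for comparison after its values were seen. It lies head to head with HIF1A-AS1, 1798 bases away on the plus strand, and was at 25.31 and 27.90 RPKM in UT, 23.80 and 24.25 during exposure, 48.32 and 53.92 in Ni-W, with 80.35 and 75.43 in HCl3. In DESeq2 fits of each pair of groups HIF1A was higher in Ni-W than in UT (log2 fold change 0.91 ± 0.11 SE, adjusted p = 1.36e-14) and higher in HCl3 than in UT (1.49 ± 0.096, adjusted p = 3.46e-51), whereas Ni-E was at -0.20 ± 0.11 (adjusted p = 0.287). These fits share the UT libraries. The antisense RNA and HIF1A thus took opposite courses after washout, and a link between them was not tested.

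**Figure D1:**
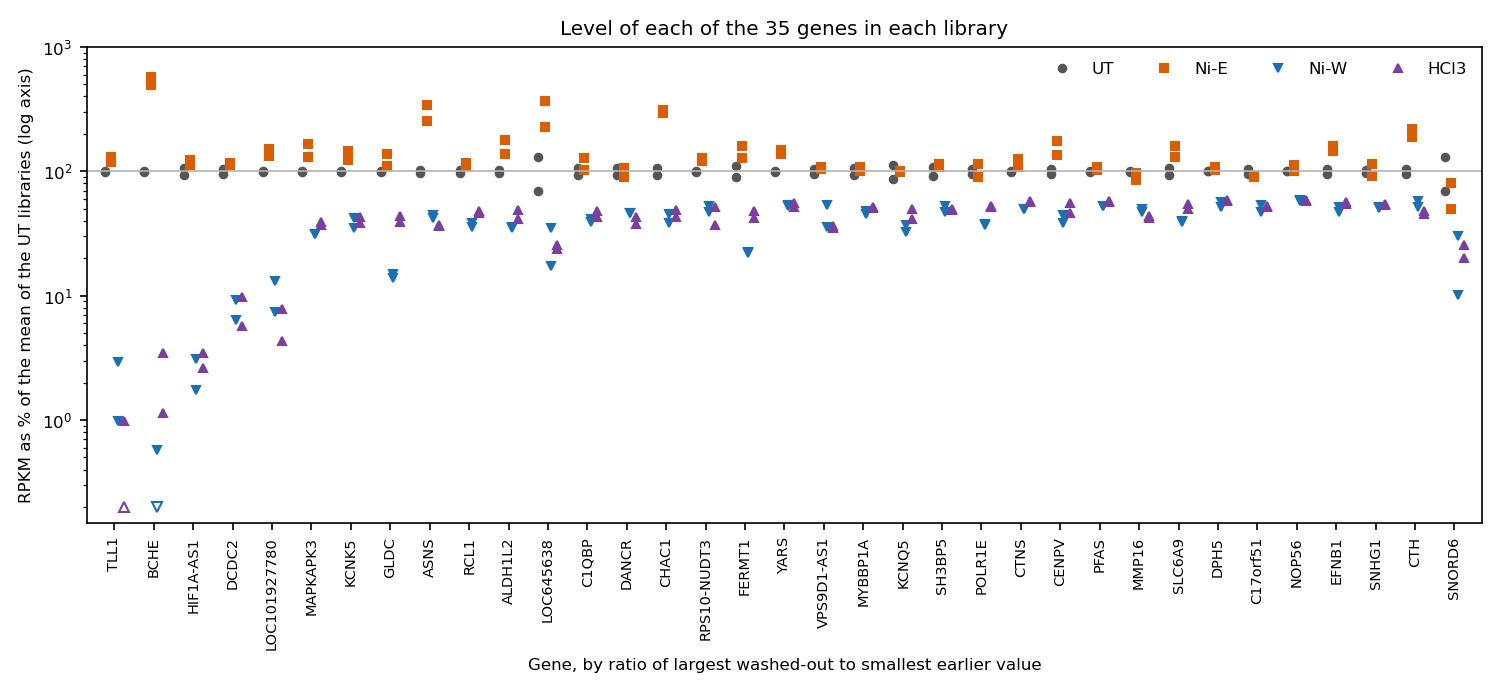
RPKM of each of the 35 genes in each of the 8 libraries, as a percentage of the mean of the UT libraries on a log axis, with genes ordered by the ratio that chose them. Open symbols mark values under 0.2%, drawn at that level. The 5 genes at the left lay under 15% in all washed-out libraries, and the other 30 form a continuous band, most of them between 20 and 60%.

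The other 30 genes kept more of their expression. Over all 35 the median washed-out level was 38.7% of the earlier level, and the highest was 56.2% (NOP56). Between 10 and 25% were ASNS, CHAC1, GLDC and LOC645638, and 11 genes lay between 25 and 40%, 10 between 40 and 50% and 5 between 50 and 60%. By the ratio of the largest washed-out to the smallest earlier value, no member lay between LOC101927780 (0.132) and MAPKAPK3 (0.393). In the fits of counts, called at an adjusted p under 0.05 and at least 1.5-fold, all 35 were lower in Ni-W than in UT, where 4.83% of all genes tested were called lower. Of the 35, 34 were lower in HCl3 than in UT (background 3.74%), in Ni-W than in Ni-E (8.81%) and in HCl3 than in Ni-E (6.78%), the exception in each being SNORD6 with 3 to 22 reads per library. These counts follow from the rule and support nothing further.

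Genes of amino acid and one-carbon metabolism formed a role group of 7 members. ASNS, asparagine synthetase, was at 38.87 and 41.26 RPKM in UT, 102.48 and 136.06 during exposure, 16.75 and 17.79 in Ni-W, with 14.73 and 14.48 in HCl3. CHAC1, an enzyme that degrades glutathione, was at 8.36 and 7.24 RPKM in UT, 24.17 and 23.10 during exposure, 3.51 and 3.02 in Ni-W, with 3.32 and 3.82 in HCl3. CTH, cystathionine gamma-lyase of cysteine synthesis, was at 4.8 and 4.43 RPKM in UT, 8.78 and 10.08 during exposure, 2.38 and 2.65 in Ni-W, with 2.08 and 2.20 in HCl3. All 3 genes had the same order of groups, with Ni-E highest, UT in the middle and both washed-out groups lowest, and no overlap between these levels.

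The same order held for the other members of the group. ALDH1L2, a mitochondrial enzyme of folate metabolism, was at 1.52 and 1.43 RPKM in UT, 2.03 and 2.63 during exposure, 0.52 and 0.53 in Ni-W, with 0.72 and 0.61 in HCl3. SLC6A9, the glycine transporter GLYT1, was at 5.13 and 4.45 RPKM in UT, 6.21 and 7.73 during exposure, 1.92 and 1.86 in Ni-W, with 2.4 and 2.61 in HCl3. YARS (now YARS1), the cytosolic tyrosyl-tRNA synthetase, was at 73.24 and 75.27 RPKM in UT, 102.38 and 109.80 during exposure, 39.91 and 38.82 in Ni-W, with 38.59 and 40.97 in HCl3. In all of these the Ni-E libraries lay above both UT libraries. GLDC, the glycine decarboxylase of the glycine cleavage system, was at 7.31 and 7.43 RPKM in UT, 10.14 and 8.15 during exposure, 1.11 and 1.03 in Ni-W, with 2.89 and 3.20 in HCl3, which makes it the member of the group with the widest gap between the washed-out groups.

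**Figure D2:**
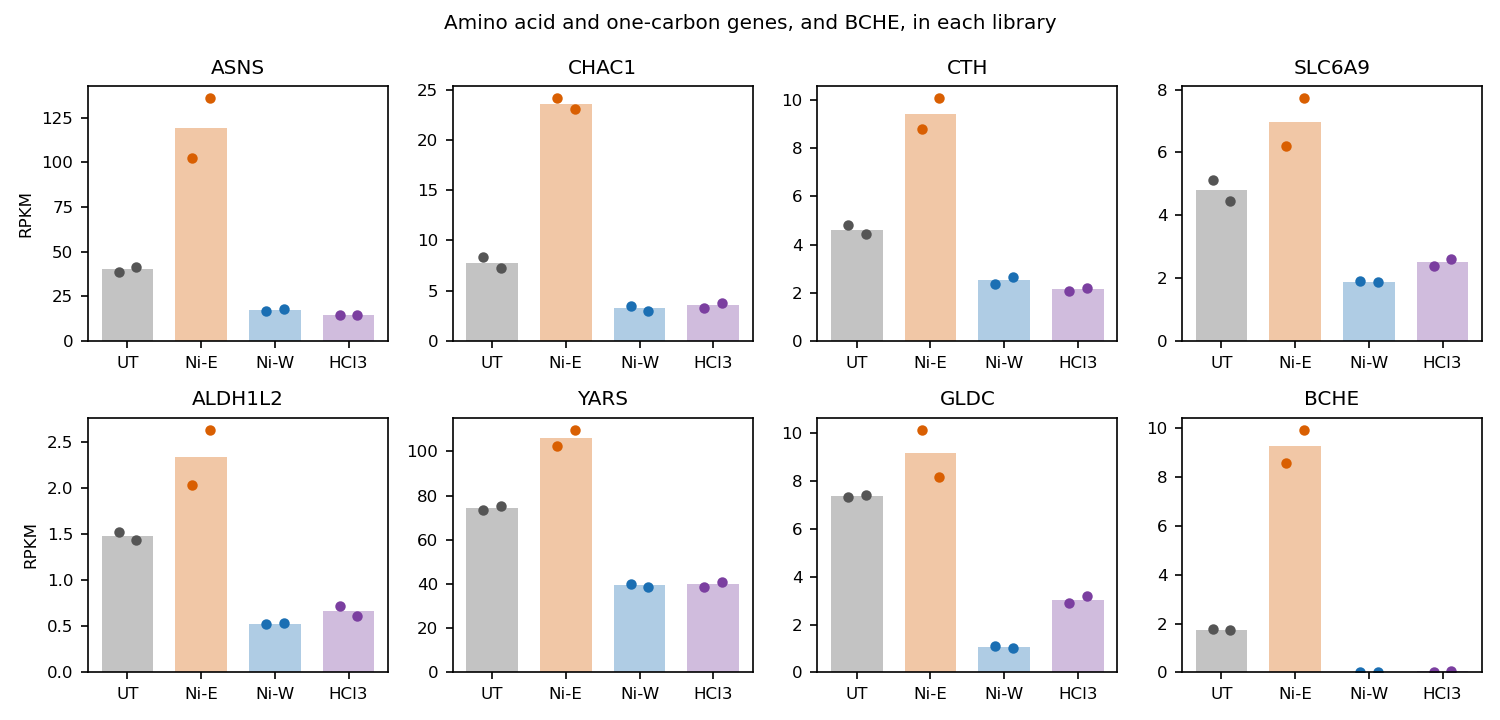
RPKM of the 7 amino acid and one-carbon genes and of BCHE in each group, with bars for the mean of 2 libraries and points for the libraries. In each panel the Ni-E bar is the tallest and both washed-out bars are below UT, and the Ni-W and HCl3 bars of GLDC (1.07 and 3.05) are the most unequal of the amino acid genes.

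Whether these genes had already moved during exposure was asked with the comparison of Ni-E with UT, a contrast that the rule did not set. The rule used the smallest of the UT and Ni-E values, so that the contrast is not fully independent of it. Experiment and group cannot be told apart in this contrast. DESeq2 called 6 of the 35 genes higher in Ni-E and 0 lower, while 3.75% of all 14478 genes tested were called higher and 2.05% lower, and 2.79% of the expressed genes tested were called higher. The 6 genes were BCHE, CHAC1, ASNS, LOC645638, CTH and ALDH1L2. BCHE rose 5.11-fold (log2 2.35 ± 0.19 SE, adjusted p = 2.38e-31), CHAC1 2.91-fold (1.54 ± 0.16, adjusted p = 2.72e-20) and ASNS 2.87-fold (1.52 ± 0.13, adjusted p = 3.18e-26). LOC645638, an RNA of the pseudogene WFDC21P, rose 2.83-fold (1.5 ± 0.30, adjusted p = 3.91e-05), CTH 1.98-fold (0.98 ± 0.17, adjusted p = 1.52e-06) and ALDH1L2 1.52-fold (0.60 ± 0.19, adjusted p = 0.017). Of the amino acid and one-carbon group, 4 of 7 were thus called.

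A further 4 genes passed the adjusted p but not the 1.5-fold limit, namely YARS (log2 0.46 ± 0.10, adjusted p = 0.000325), EFNB1 (0.56 ± 0.14, adjusted p = 0.00178), CENPV (0.58 ± 0.16, adjusted p = 0.00415) and MAPKAPK3 (0.52 ± 0.15, adjusted p = 0.00672). SLC6A9 was at 0.48 ± 0.17 (adjusted p = 0.052) and GLDC at 0.26 ± 0.15 (adjusted p = 0.321). No gene was called lower by DESeq2, edgeR or limma, and with an unadjusted p under 0.05 at 1.5-fold the count of lower genes was also 0 in each. With 2.05% of all genes called lower, 35 genes would hold few or none, so these zeros are no result about the members. Both Ni-E libraries lay above both UT libraries in 25 of the 35 genes, against 37.1% of the expressed genes, and below them in 2 (MMP16 and C17orf51), against 22.6%. The median log2 fold change in Ni-E was 0.17 over the 35 genes and -0.0093 over all expressed genes. With limma on log2(RPKM + 1), which called 0 of all genes in this comparison, none of the 6 calls was kept. The count under an unadjusted p was 6 there. Without Ni-E replicate 2 LOC645638 was no longer called, and ALDH1L2 was not called once any of the 4 libraries was left out.

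**Figure D3:**
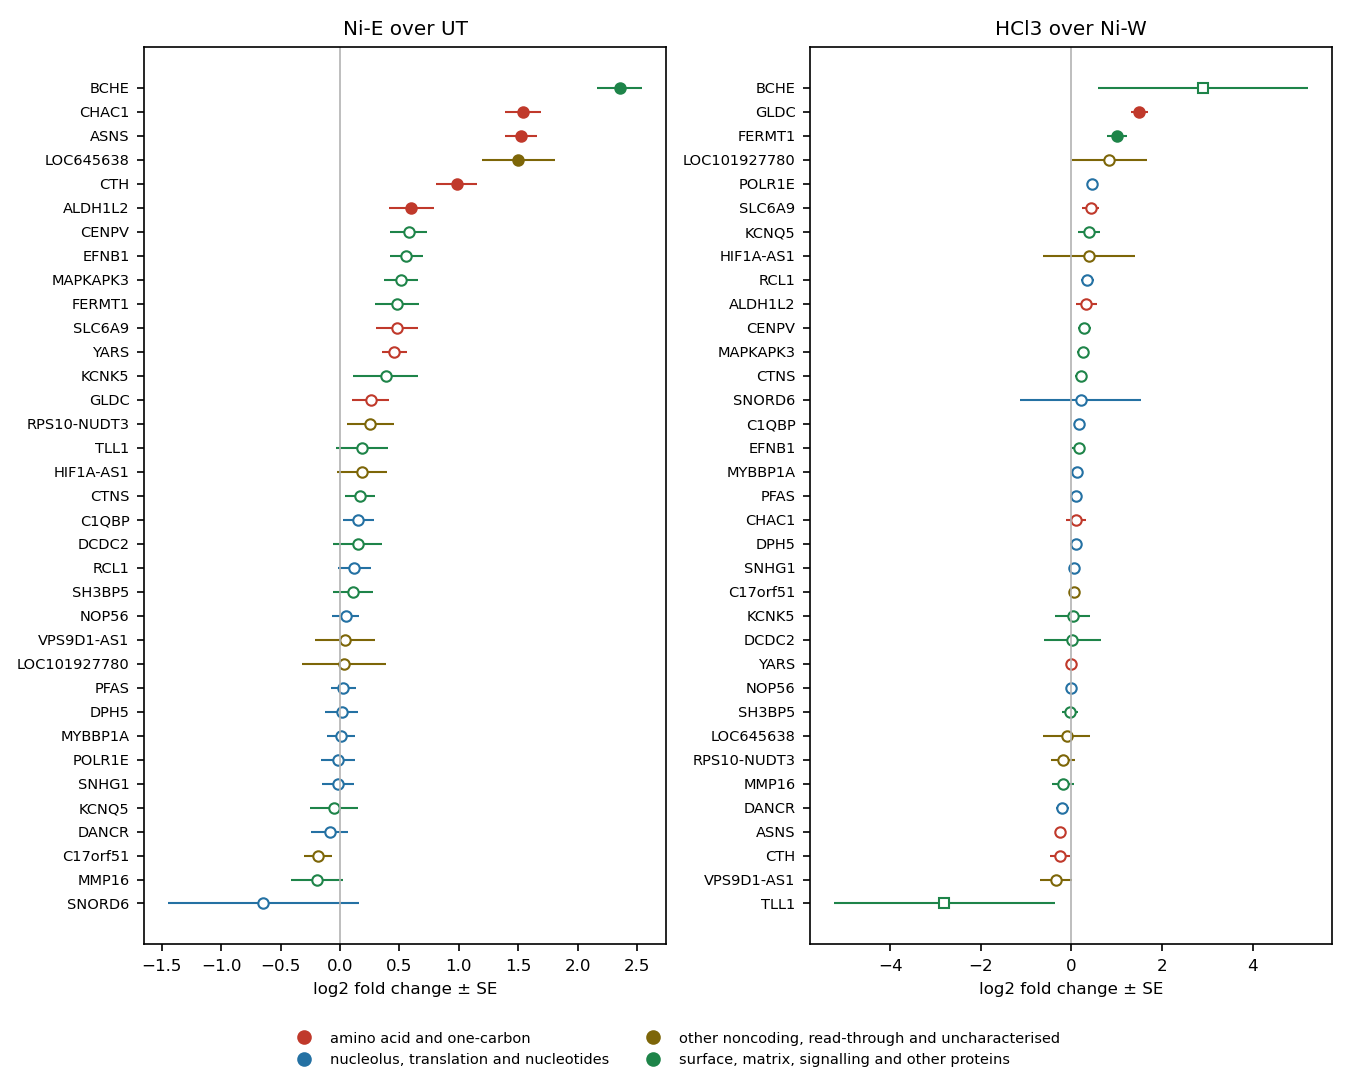
log2 fold change with its standard error for the 35 genes in Ni-E over UT (left) and HCl3 over Ni-W (right), with role groups in colour. Filled symbols mark genes called at 1.5-fold with an adjusted p under 0.05, and squares mark genes for which DESeq2 gave no adjusted p. Of the filled points, 6 are at the top left and 2 (GLDC and FERMT1) at the right, and none lies below 0.

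Other genes of the amino acid response were examined with a list of known ATF4 targets, written after the members had been seen. Of 50 genes on the list 48 were expressed and 6 were members. Among the 42 that were no members, 19 were called higher in Ni-E than in UT and 0 lower, against 2.74 and 1.9% of the 10665 expressed genes outside the 35. In Ni-W 1 was called higher and 9 lower than in UT, and in HCl3 1 higher and 10 lower (backgrounds 5.96 and 4.62% lower). ATF4 was at 106.75 and 98.21 RPKM in UT, 177.09 and 187.74 during exposure, 62.86 and 58.71 in Ni-W, with 52.51 and 57.39 in HCl3. TRIB3, a pseudokinase that feeds back on ATF4, was at 27.69 and 23.53 RPKM in UT, 74.71 and 66.02 during exposure, 12.76 and 12.73 in Ni-W, with 15.79 and 16.41 in HCl3. PSAT1, of serine synthesis, was at 79.16 and 88.49 RPKM in UT, 181.30 and 188.79 during exposure, 47.59 and 53.48 in Ni-W, with 39.41 and 37.49 in HCl3.

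These 3 genes followed the same order of groups as ASNS and CHAC1. ATF4 rose in Ni-E (log2 0.78 ± 0.11, adjusted p = 1.49e-10) and was lower than UT in Ni-W (-0.78 ± 0.11, adjusted p = 1.13e-11) and in HCl3 (-0.95 ± 0.10, adjusted p = 1.12e-18), in fits that share the UT libraries. Not every target did so. PHGDH rose in Ni-E (1.04 ± 0.13, adjusted p = 8.74e-13) but was at 0.25 ± 0.11 in Ni-W (adjusted p = 0.0595) and -0.093 ± 0.10 in HCl3 (adjusted p = 0.543), and DDIT3, a stress factor downstream of ATF4, was at -0.22 ± 0.18 in Ni-E (adjusted p = 0.502). Of 17 expressed enzymes of serine, glycine and folate metabolism, 2 (ALDH1L2 and GLDC) were members, and among the other 15, 5 were higher in Ni-E and 3 were lower than UT in each of the washed-out groups.

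The next role group, with 10 members, comprises genes of the nucleolus, translation and nucleotide synthesis. C1QBP, a mitochondrial matrix protein needed for mitochondrial translation, had the highest level of all members, at 435.19 and 492.86 RPKM in UT, 594.13 and 476.58 during exposure, 191.25 and 181.96 in Ni-W, with 200.45 and 223.28 in HCl3. NOP56, a core protein of box C/D snoRNPs, was at 117.02 and 117.12 RPKM in UT, 132.87 and 118.69 during exposure, 69.43 and 67.05 in Ni-W, with 67.78 and 68.87 in HCl3. POLR1E, a subunit of RNA polymerase I, was at 37.51 and 40.86 RPKM in UT, 45.20 and 35.36 during exposure, 14.56 and 14.83 in Ni-W, with 20.46 and 20.13 in HCl3. Unlike the amino acid genes, these genes had Ni-E libraries close to UT. Of the 10 members 0 were called in Ni-E, and their median log2 fold change there was 0.0089, between -0.65 (SNORD6) and 0.15 (C1QBP).

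Further members of this group act in the nucleolus, in nucleotide synthesis or in translation. RCL1, which takes part in processing of the small ribosomal subunit RNA, was at 13.30 and 14.07 RPKM in UT, 15.83 and 15.08 during exposure, 4.92 and 5.30 in Ni-W, with 6.62 and 6.38 in HCl3. MYBBP1A, a nucleolar protein that binds MYB, was at 44.78 and 38.85 RPKM in UT, 45.29 and 42.15 during exposure, 19.04 and 20.18 in Ni-W, with 21.28 and 21.78 in HCl3. PFAS, an enzyme of purine synthesis, was at 40.17 and 38.96 RPKM in UT, 43.21 and 40.57 during exposure, 20.95 and 20.71 in Ni-W, with 22.60 and 22.80 in HCl3. In each of them the HCl3 libraries lay above the Ni-W libraries. DPH5, which makes the diphthamide residue of elongation factor 2, was at 17.59 and 17.61 RPKM in UT and 9.10 to 10.37 in the washed-out libraries.

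The noncoding members of the group were SNHG1, DANCR and SNORD6. SNHG1, a snoRNA host transcript, was at 81.73 and 77.90 RPKM in UT, 90.72 and 73.38 during exposure, 41.28 and 40.86 in Ni-W, with 42.84 and 43.63 in HCl3. DANCR, a long noncoding RNA that also hosts a snoRNA, was at 41.58 and 36.06 RPKM in UT, 41.25 and 34.70 during exposure, 18.03 and 17.83 in Ni-W, with 14.74 and 16.78 in HCl3. SNORD6, a box C/D snoRNA of 71 bases, rested on 11 to 22 reads in the earlier and 3 to 6 in the washed-out libraries, and its level is uncertain. Reads of the small RNAs inside NOP56, SNHG1 and DANCR, which are listed on the same strand, could be shared with their hosts. Genes on the opposite strand are listed over C1QBP (RPAIN), MYBBP1A (SPNS2), YARS (S100PBP), SLC6A9 (CCDC24), CTNS (TAX1BP3), SH3BP5 (SH3BP5-AS1) and KCNQ5 (KCNQ5-AS1), with the same limit on strand as for DCDC2.

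Related genes outside the 35 were counted with lists that were also written after the members had been seen. Of 80 expressed genes of ribosome biogenesis and RNA polymerase I, 4 were members, and among the other 76, 22 were lower in Ni-W than in UT and 1 higher, and 18 were lower in HCl3 and 0 higher. Their median log2 fold changes were -0.46 and -0.47, against -0.064 and -0.07 over the expressed genes outside the 35, and -0.052 in Ni-E. NPM1, nucleophosmin, was at 433.44 and 445.62 RPKM in UT, 477.34 and 413.01 during exposure, 293.90 and 288.28 in Ni-W, with 255.21 and 261.18 in HCl3. Of the 16 snoRNA host genes outside the set 6 were lower and 2 higher in Ni-W, and 7 lower and 2 higher in HCl3. Of 11 purine synthesis enzymes outside the set 1 was lower in each and 0 higher. Over all expressed genes outside the 35, 5.96% were called lower and 6.48% higher in Ni-W, and 4.62% and 6.39% in HCl3. Most genes with these roles did not meet the rule.

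The 12 members of the group of surface, matrix, signalling and other proteins share no single role. MAPKAPK3, a kinase downstream of p38, was at 16.84 and 16.56 RPKM in UT, 27.65 and 21.92 during exposure, 5.27 and 5.26 in Ni-W, with 6.22 and 6.51 in HCl3, and had the smallest ratio (0.393) after the 5 nearly silent genes. Its promoter contains the E-box, shown here in capitals within 71 bases before the start (chr3:50617080-50617150, plus strand, GRCh38.p14).
MAPKAPK3: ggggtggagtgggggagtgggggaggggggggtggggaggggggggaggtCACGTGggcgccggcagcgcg

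Cell adhesion and matrix genes of the group were FERMT1, EFNB1 and MMP16, beside TLL1. FERMT1, which encodes kindlin-1, an integrin activator of epithelial cells, was at 2.60 and 3.20 RPKM in UT, 4.68 and 3.73 during exposure, 0.65 and 0.64 in Ni-W, with 1.23 and 1.39 in HCl3. EFNB1, the membrane-bound ephrin-B1 of axon guidance and cell sorting, was at 8.24 and 7.47 RPKM in UT, 12.53 and 11.55 during exposure, 4.05 and 3.68 in Ni-W, with 4.44 and 4.29 in HCl3. MMP16, a membrane-type matrix metalloprotease, was at 1.29 and 1.32 RPKM in UT, 1.27 and 1.11 during exposure, 0.62 and 0.65 in Ni-W, with 0.57 and 0.55 in HCl3. FERMT1 and EFNB1 had their highest values in Ni-E, whereas MMP16 had its highest in UT.

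Potassium channels were represented by KCNK5, the acid-sensitive leak channel TASK-2, and KCNQ5, a voltage-gated channel of the M-current. KCNK5 was at 1.01 and 1.03 RPKM in UT, 1.5 and 1.27 during exposure, 0.43 and 0.36 in Ni-W, with 0.44 and 0.39 in HCl3. KCNQ5 was at 1.41 and 1.82 RPKM in UT, 1.59 and 1.64 during exposure, 0.53 and 0.60 in Ni-W, with 0.81 and 0.67 in HCl3. Both were near the lowest level that the rule admitted. CENPV, a centromere protein, was at 29.00 and 32.32 RPKM in UT, 53.68 and 41.24 during exposure, and 11.69 to 16.94 in the washed-out libraries. CTNS, the lysosomal cystine exporter cystinosin, was at 10.62 and 10.56 RPKM in UT, 11.52 and 13.21 during exposure, and 5.24 to 6.15 in the washed-out libraries. SH3BP5, an inhibitor of the kinase BTK, was at 4.66 and 5.53 RPKM in UT, 5.85 and 5.56 during exposure, and 2.4 to 2.68 in the washed-out libraries.

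The remaining 4 members are noncoding, read-through or uncharacterised. LOC645638 was at 7.99 and 4.21 RPKM in UT, 13.76 and 22.58 during exposure, 2.13 and 1.06 in Ni-W, with 1.56 and 1.46 in HCl3, with a wide spread between its replicates. VPS9D1-AS1, an antisense RNA that overlaps VPS9D1, was at 2.73 and 3.02 RPKM in UT, 3.14 and 3.01 during exposure, 1.03 and 1.53 in Ni-W, with 1.04 and 1.01 in HCl3. RPS10-NUDT3, a read-through transcript that shares exons with RPS10 and NUDT3, was at 3.24 and 3.34 RPKM in UT and 1.22 to 1.73 in the washed-out libraries, and its reads cannot be separated from those of RPS10 and NUDT3 with certainty. C17orf51 was at 9.79 and 10.86 RPKM in UT, 9.55 and 9.28 during exposure, and 4.85 to 5.49 in the washed-out libraries. Transcripts listed only as noncoding made up 7 of the 35 members (20%) and 3.86% of the expressed genes. Of the 27 lists of gene families and pathways compiled for these cells, 6 held a member. The other 21 held none, among them cell cycle (83 expressed genes), interferon (48), collagen and matrix (35) and zinc finger genes (355). Since only 0.327% of all expressed genes were members, lists of this size would hold few or none. Their absence is no result about these families.

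Whether these genes were lowered to the same extent in both washed-out groups was examined with the comparison of HCl3 with Ni-W. The rule capped the largest of the Ni-W and HCl3 values, so that a gene kept high in either group was barred. The contrast is therefore not independent of the rule, and closeness of the groups follows in part from it. Experiment and group cannot be told apart in this contrast either. DESeq2 called 2 of the 35 genes higher in HCl3 and 0 lower, and gave 33 of them an adjusted p. Of all 14956 genes tested 3.1% were called higher and 1.66% lower, and of the expressed genes tested 2.17% were called higher. GLDC was 2.81-fold higher in HCl3 (log2 1.49 ± 0.19 SE, adjusted p = 1.96e-13), with 14.5% of its UT level in Ni-W and 41.3% in HCl3. FERMT1 was 2.01-fold higher (1.00 ± 0.22, adjusted p = 0.000142), with 22.2% of its UT level in Ni-W and 45.2% in HCl3. POLR1E passed the adjusted p but not the fold limit (0.45 ± 0.10, adjusted p = 0.000221). YARS (0.00029 ± 0.078, adjusted p = 0.999) and NOP56 (-0.014 ± 0.074, adjusted p = 0.943) had differences near 0. edgeR called 0 lower as well, and limma 0, with 0 lower at an unadjusted p under 0.05. At a background of 1.66%, 35 genes would hold few or none.

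Both HCl3 libraries lay above both Ni-W libraries in 17 of the 35 genes, against 33.9% of the expressed genes, and below them in 4 (ASNS, DANCR, MMP16 and CTH), against 29.9%. FERMT1 was no longer called without HCl3 replicate 2, where 1 call was left, and was not called by limma. BCHE and TLL1 had too few reads in these libraries for an adjusted p.

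The members were unevenly spread over the genome, which the rule did not use. Chromosome 17 held 7 of the 35 genes, and 6 of these (CTNS, MYBBP1A, C1QBP, PFAS, CENPV and C17orf51) lay on its short arm, taken as the genes that end before 22 Mb in hg19. A further 3 (RCL1, GLDC and POLR1E) lay on the short arm of chromosome 9 (before 47 Mb), and 2 (NOP56 and FERMT1) on that of chromosome 20 (before 26 Mb). Together these 3 short arms held 11 of the 35 members (31.4%) and 3.92% of the expressed genes. The arms were picked after the positions of the members had been seen, so that no test is given.

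Expressed genes on these arms that were not among the 35 were also lower after washout. The median log2 ratio of Ni-W to UT over such genes (mean RPKM + 0.1) was -0.41 for 197 genes on the short arm of chromosome 17, -0.62 for 114 genes on that of chromosome 9 and -0.44 for 97 genes on that of chromosome 20. For HCl3 to UT it was -0.38, -0.28 and -0.23. During exposure no such shift was seen, with medians of Ni-E to UT of 0.078, 0.047 and 0.14, and on the rest of the same chromosomes the medians in Ni-W were 0.022, 0.26 and 0.30. Of the 408 genes outside the 35 on the 3 arms, 58.8% had all 4 washed-out libraries below all 4 earlier libraries, against 20.7% of all expressed genes outside the 35.

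**Figure D4:**
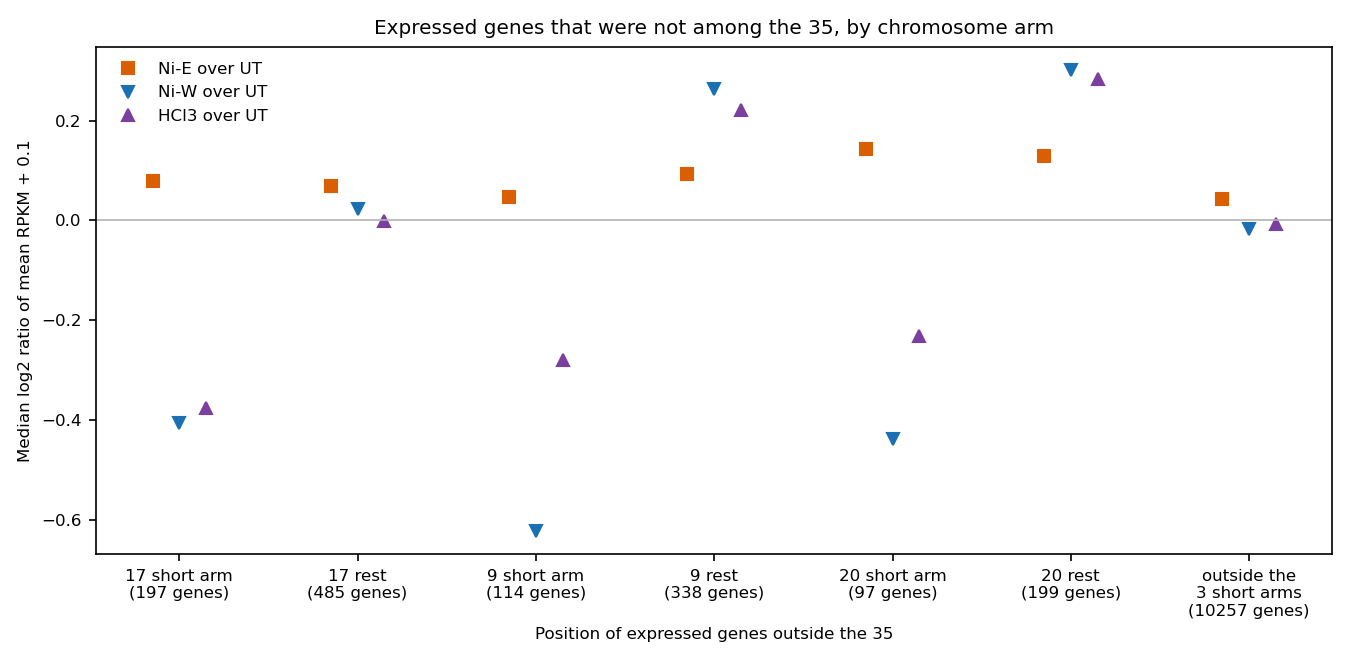
Median log2 ratio of mean RPKM + 0.1 to UT for expressed genes that were not among the 35, arranged by chromosome arm, with squares for Ni-E, downward triangles for Ni-W and upward triangles for HCl3. On the 3 short arms Ni-W and HCl3 lie between -0.23 and -0.62 while Ni-E lies just above 0, and on the rest of chromosomes 9 and 20 all 3 lie above 0.

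Neighbours within 2 Mb of each member were taken from the same expressed genes outside the 35, and nearby members share neighbours. On the 3 short arms they therefore restate the arm medians and add no separate evidence. For the 11 members on the 3 short arms the neighbours' median log2 ratio of washed-out to earlier levels was between -0.47 and -0.33. For the other 24 members, it was between -0.27 and 0.40 where at least 4 neighbours were expressed. All 35 members were lower than the median of their neighbours, which the rule favours. GLDC, for example, was at -1.95 with its 14 neighbours at -0.47, NOP56 at -0.83 with 36 neighbours at -0.38, and CHAC1 at -2.17 with 43 neighbours at 0.40. The copy number of these arms was not measured here, and its part in the level of the 11 members was not tested.

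Of the 5 nearly silent genes, grouped by the levels that the rule used, 4 had promoters with few CG dinucleotides and HIF1A-AS1 did not. In the 300-base promoters BCHE held 2 CG, LOC101927780 3 in each of its listed promoters, TLL1 6 and DCDC2 7. HIF1A-AS1 held 30, and the other 21 members with a promoter between 16 and 44. Over the promoters of expressed genes the median was 26 and 11.9% held 7 or fewer. That limit equals the count of DCDC2, so the share is a description and no test. The start sites used in BEAS-2B cells are not known from these data, and DNA methylation was not measured in them. By span in the genome the members, with a median of 23.4 kb, were close to the expressed genes (25.8 kb), and the GC content of their transcripts was 49.1% against 47.5%.

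**Figure D5:**
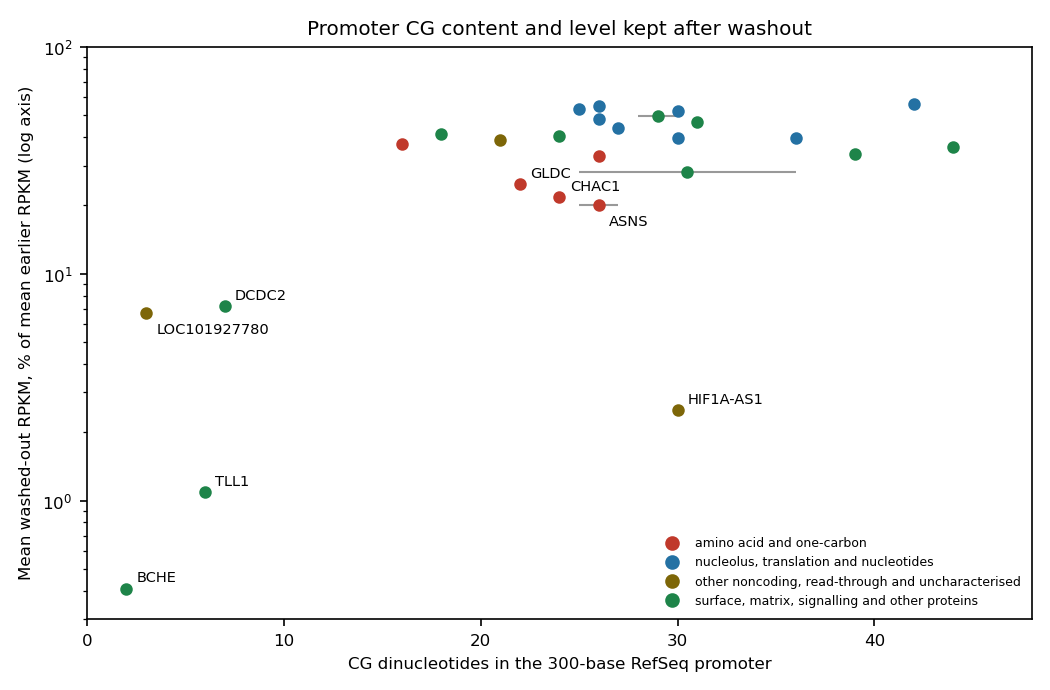
CG dinucleotides in the 300-base RefSeq promoter (x) against the mean washed-out level as a percentage of the mean earlier level (y, log axis) for the 26 members with a promoter, coloured by role. Each horizontal line spans the 2 listed promoters of a single gene where their CG counts differ. BCHE, TLL1, LOC101927780 and DCDC2 lie at the lower left with 2 to 7 CG, and HIF1A-AS1 lies alone at the lower right with 30.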

How the data were processed

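RNA-Seq libraries were prepared by the authors with a TruSeq RNA kit and sequenced on an Illumina HiSeq instrument. The authors aligned the reads to hg19 with STAR 2.4 (multi-hits removed) and obtained with BioWardrobe, for each of 8 libraries and 25411 RefSeq genes, the deposited read counts and RPKM values. Strand use was not stated. The rule was applied to the deposited RPKM values in exact hundredths, and counts were fitted pairwise over all genes (4 libraries, two-sided Wald test, Benjamini-Hochberg adjustment, default independent filtering) with DESeq2 1.42.0 in R 4.3.3. Genes were called at an adjusted p under 0.05 and at least 1.5-fold, as in the study's methods. Alternatives used edgeR 4.0.16 (quasi-likelihood test) and limma 3.58.1 on log2(RPKM + 1) or log2(RPKM + 0.1). Scripts were tested on simulated data.

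The members and gene lists were chosen with earlier results of these data known. Named were members with the highest UT level, the smallest ratios, a place in a list, a call, an adjacent member or a ratio at the limit (29 of 35), and the other 6 so that every member is accounted for. With 2 libraries per group, P values rest on a spread shared across genes, since permuting 4 libraries cannot reach 0.05 for a single gene. Reads carried no molecular identifiers, so limits from counts cover counting error only. Same-suffix libraries did not deviate together (r = -0.116 for Ni-E and UT, -0.0535 for HCl3 and Ni-W), so replicates were not paired. Promoters came from RefSeq, and 9 members had none. Chromatin data were not analysed here, and 1 fixed marker gene is not reported here.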

Additional observations from a re-analysis of the deposited data

Results flagged for a closer look

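GLDC and FERMT1 differed between the washed-out groups by the test of the difference itself. The change from UT was 1.49 (log2) less deep in HCl3 than in Ni-W for GLDC and 1.00 less deep for FERMT1. GLDC was at 1.11 and 1.03 RPKM in Ni-W and 2.89 and 3.20 in HCl3, and FERMT1 at 0.65 and 0.64 against 1.23 and 1.39. Both genes lie on short arms (of chromosomes 9 and 20) whose other expressed genes were also further below UT in Ni-W (median log2 -0.62 and -0.44) than in HCl3 (-0.28 and -0.23). The part of this in the difference was not tested. Experiment and washed-out group cannot be told apart in these data either. Groups of 2 libraries were too small to look for a library that stands apart.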

How the results depend on the processing

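The set depends on its limits. A ratio of 0.5 gave 10 genes and 0.7 gave 139, while a minimum RPKM of 0.5 or 2 gave 42 or 28, and counts over size factors in place of RPKM gave 39, of which 32 were shared (C17orf51, SNHG1 and SNORD6 left). Leaving out 1 library, which loosens the rule by construction, gave 38 to 60 genes with all 35 kept, and the 60 came without UT replicate 2. The count of 6 genes higher in Ni-E was 0 with limma at either pseudocount, 10 without a fold threshold, 2 among the 10 genes at a ratio of 0.5, and 5 to 6 without 1 library. With the replicate suffix as a block it was 5, with the crossed block 5, with GC and length trends removed 7, and with both 6, all but the first chosen after seeing the data. The count of 2 genes higher in HCl3 than in Ni-W was 1 with limma at either pseudocount, 1 among the 10 genes at a ratio of 0.5, 2 with the block, and 1 to 2 without 1 library. The cause of these shifts was not tested, apart from the smaller sets. Counts of lower genes were 0 in each alternative run, where the background shares would give few or none. Of the 8 genes called, none changed direction in any alternative, and GLDC alone passed in all 13 of its alternatives. The depth of up to 11 reads per washed-out library for TLL1, BCHE and HIF1A-AS1 limits their levels to a range near 0.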
